A study of Rattus norvegicus with 78 samples.

Results

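The beta-defensins are a gene family, and here they were all genes whose symbol in the platform annotation is Defb followed by a number. They numbered 37 of the 14506 genes that the annotation names from probe sets with 1 symbol, and where a gene had several probe sets the one with the highest mean over the 78 arrays was used. The arrays measured RNA of sperm flushed from the cauda epididymides, the last segment of the duct in which sperm mature and are stored, of Fischer 344 rats. There were 4 groups: corn oil, the vehicle (20 arrays); 1,2-dibromo-3-chloropropane (DBCP), a soil fumigant toxic to male germ cells, at 5 mg/kg/d (20 arrays); and corn oil or DBCP at that dose followed by a recovery period (19 arrays each). The exposure lasted 3 months per the text of the series, and no source used here gives the length of the recovery. All rats were of 1 strain; the tissue is sperm per the labels, although the series title speaks of testis. The replicates are labelled as biological, with no word on whether an array held the RNA of 1 rat or of several.

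Beta-defensins are small secreted peptides, folded by disulphide bonds between conserved cysteines, that can kill microbes by disturbing their membranes and that attract immune cells. Mammals carry many of them in clusters that are expressed mainly by the epithelium of the epididymis, each in its own stretch of the duct and many under the control of androgens. The peptides bind to passing sperm and become part of the coat through which sperm move, escape immune attack and reach the egg. Sperm themselves make little new RNA, and the level of such a gene in a sperm preparation can depend on which cells and fragments come along with the sperm. Where the RNA of these genes came from was not tested here. In such bulk RNA, fewer cells of a type and less RNA per cell cannot be told apart.

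The genes lay in 4 clusters of the rat genome (GRCr8 gene table, in which all 37 were found): 12 on chromosome 3, 2 on chromosome 9, 5 on chromosome 15 and 18 on chromosome 16. For 24 of them RefSeq gives a promoter sequence in GRCr8. The 250 bases before the gene start are shown for 4 genes. Defb43 and Defb49 rose on the arrays after recovery whether or not the rats had DBCP. Of the family, Defb49 was the gene whose levels varied most closely with those of Defb43. Defb22 and Defb26 had the largest falls. The windows are chr15:41447625-41447874 (plus strand) for Defb43, chr9:28333899-28334148 (minus strand) for Defb49, chr3:161421660-161421909 (minus strand) for Defb22 and chr3:161441235-161441484 (minus strand) for Defb26. Each reads 5′ to 3′ on the strand of its gene. Capitals mark TATAAA, the letters of a TATA box, and AGAACA, the letters of an androgen receptor half-site, on either strand (TTTATA and TGTTCT are their reverse complements), and the motifs do not overlap here.
Defb43: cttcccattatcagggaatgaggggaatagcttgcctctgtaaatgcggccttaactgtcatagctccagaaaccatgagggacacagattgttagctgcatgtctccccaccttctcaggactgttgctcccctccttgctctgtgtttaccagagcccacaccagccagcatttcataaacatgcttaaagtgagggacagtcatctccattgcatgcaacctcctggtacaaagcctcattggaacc
Defb49: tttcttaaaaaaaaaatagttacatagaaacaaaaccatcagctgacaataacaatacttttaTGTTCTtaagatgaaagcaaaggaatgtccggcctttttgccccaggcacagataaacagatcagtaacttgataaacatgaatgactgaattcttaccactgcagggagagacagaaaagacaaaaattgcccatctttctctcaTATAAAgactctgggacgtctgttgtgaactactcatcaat
Defb22: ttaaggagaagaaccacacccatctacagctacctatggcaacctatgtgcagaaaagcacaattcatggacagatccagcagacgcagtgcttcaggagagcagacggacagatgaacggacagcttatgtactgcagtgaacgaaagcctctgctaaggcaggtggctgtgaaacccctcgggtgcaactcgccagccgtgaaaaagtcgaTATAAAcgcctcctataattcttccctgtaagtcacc
Defb26: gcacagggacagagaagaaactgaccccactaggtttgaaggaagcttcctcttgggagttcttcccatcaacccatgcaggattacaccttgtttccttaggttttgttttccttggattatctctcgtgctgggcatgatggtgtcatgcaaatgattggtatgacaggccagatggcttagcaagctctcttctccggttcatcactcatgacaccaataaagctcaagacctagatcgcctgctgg

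Defb49 held both motifs, with the TATA letters starting 41 bases before the gene start. Defb22 held the TATA letters at 37 bases before the start, and neither motif was in the windows of Defb43 and Defb26. Over the 24 genes, TATAAA was in 6 (25%, against 12.9% of all 33469 RefSeq rat promoters of this length) and AGAACA in 9 (37.5%, against 17.5%). Of the 8 genes with a promoter here that rose over time in corn oil rats, 2 held TATAAA and 3 held AGAACA. Of the other 16 genes, 4 and 6 did. A match is only a match of letters, and the arrays do not measure binding.

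The deposited values are on the log2 scale, with array medians between 6.547 and 6.753, and they carry no call of whether a gene was detected. As a yardstick, the 1105 olfactory receptor genes, which are mostly silent outside the nose, had a 95th percentile of 7.739. The means of 10 beta-defensins lay above it and those of 27 did not, while 12.4% of all genes with 1 symbol did. The 10 were Defb43, Defb23, Defb39, Defb30, Defb38, Defb28, Defb41, Defb49, Defb9 and Defb25. Defb25 was the last above the line, with a mean of 7.759, and Defb15, an androgen-regulated peptide of the epididymal duct that rat sperm need for motility, was the first below it, with 7.643. By location, these were 3 of 12 on chromosome 3, 1 of 2 on chromosome 9, 3 of 5 on chromosome 15 and 3 of 18 on chromosome 16. Probe sets differ in how strongly they bind, so their levels do not rank the genes by amount of RNA, and a gene under the line may still be expressed. Defensin genes can be similar in sequence, and how far each probe set also reads its neighbours was not tested.

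**Figure D1:**
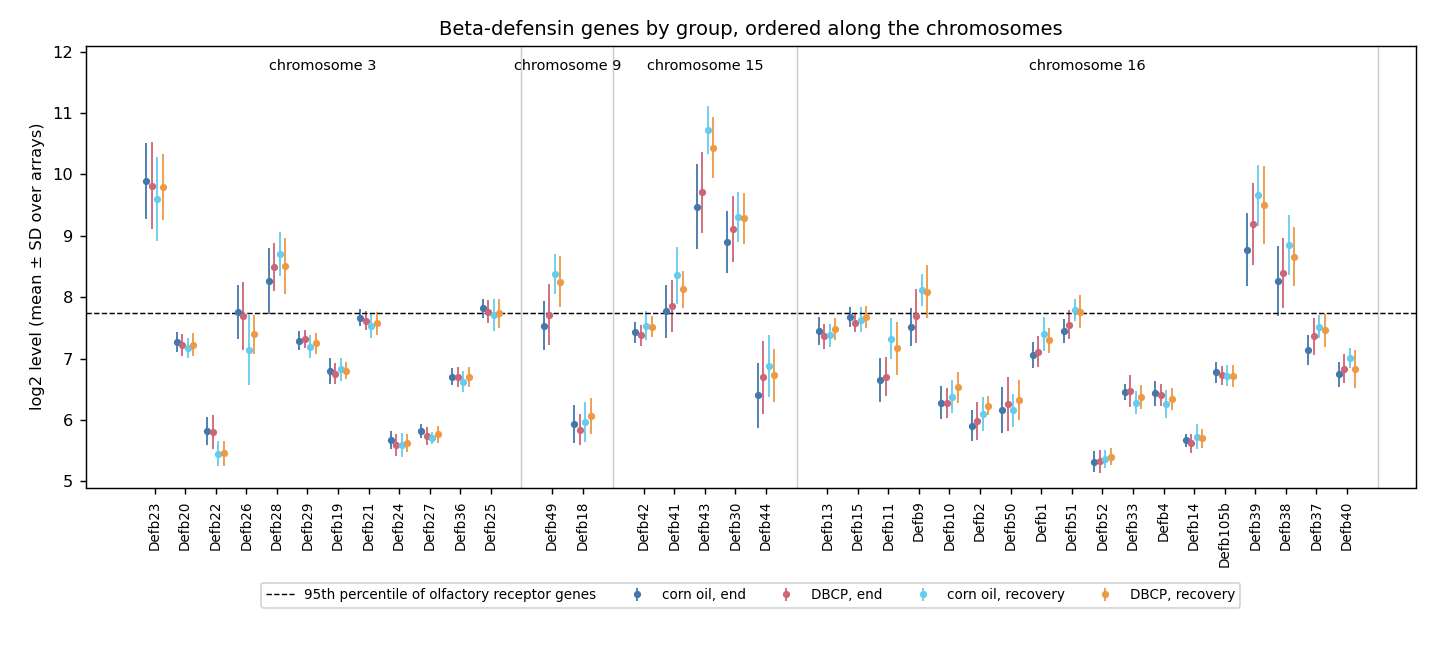
Mean log2 level (vertical axis, bars are the SD over 19 or 20 arrays) of the 37 beta-defensin genes in the 4 groups, in gene order along each chromosome. The dashed line is the 95th percentile of the olfactory receptor genes, 7.739. Among the genes above it are Defb23 on chromosome 3, Defb43, Defb30 and Defb41 on chromosome 15, and Defb39 and Defb38 on chromosome 16. The recovery groups of Defb43 lie above the groups without recovery.

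In corn oil rats, the arrays after recovery were compared with those at the end of exposure. These rats had no toxicant, so the comparison is one of time. Age, time of sampling and any difference in array processing between the groups cannot be told apart in it. Beta-defensins changed in both directions: 14 of 37 rose, 5 fell and 18 did not pass (limma, adjusted p under 0.05 over all 29214 probe sets). Over all probe sets, 11.5% rose and 12.8% fell. The median log2 difference over the family was 0.046, against -0.0381 over all probe sets. Of the 10 genes above the olfactory receptor line, 8 rose and 0 fell, with a median of 0.5866. Of the 27 others, 6 rose and 5 fell, with a median of -0.0084. This split rests on means that include the recovery arrays, so the changes over time helped to set it. At the end of exposure the corn oil means of Defb49 (7.539) and Defb9 (7.52) were under the line, and both genes rose. That of Defb26 (7.758) was above the line, and this gene fell. The counts on each side of the line are therefore partly fixed by the split.

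Defb43 had the largest change. At the end of exposure its log2 level on the corn oil arrays was 8.237 at the lowest, 9.351 at the median and 10.964 at the highest. After recovery the same values were 10.003, 10.751 and 11.39. The groups overlapped, but all 19 recovery arrays lay above the mean of the earlier group and 5 of them above its highest array. The difference was 1.25 ± 0.18 (log2, SE; 2.37-fold; limma adjusted p = 6.84e-07). Next by size was Defb39, one of a row of epididymal genes on chromosome 16, at 7.338, 8.747 and 9.902 before and 8.820, 9.681 and 10.375 after. It rose by 0.88 ± 0.19 (1.84-fold; limma adjusted p = 3.95e-04), with 19 of 19 recovery arrays above the earlier mean. Defb49 of chromosome 9 went from 6.949, 7.499 and 8.304 to 7.770, 8.374 and 8.903, and here 12 of the 19 recovery arrays lay above every earlier array. Its rise was 0.84 ± 0.13 (1.79-fold; limma adjusted p = 2.90e-06).

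Of the other 11 that rose, 7 lay on the same chromosome as Defb39. Defb11 rose by 0.68 ± 0.11 and Defb9 by 0.60 ± 0.11, and their recovery arrays all lay above the earlier means. The earlier Defb9 values were 6.979, 7.440 and 8.147 (lowest, median, highest) and the later ones 7.655, 8.158 and 8.588. Defb38, Defb37 and Defb40, the epididymal neighbours of Defb39, rose by 0.59 ± 0.16, 0.37 ± 0.08 and 0.27 ± 0.07. Defb51 rose by 0.35 ± 0.07, and so did Defb1, the beta-defensin that many epithelia make without a stimulus (0.35 ± 0.07). On chromosome 15, Defb41, which marks the epididymal duct in mice, rose by 0.58 ± 0.13, Defb44 by 0.48 ± 0.16 and Defb30 by 0.41 ± 0.15. The fifth gene of that cluster, Defb42, did not pass (0.11 ± 0.06). On chromosome 3 the gene that rose was Defb28 (0.44 ± 0.14). By chromosome, 4 of 5 rose on chromosome 15, 8 of 18 on chromosome 16, 1 of 2 on chromosome 9 and 1 of 12 on chromosome 3. These 14 rises had limma adjusted p-values of 0.0344 or less.

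Among the 5 that fell, 3 lay on chromosome 3. Defb26 had values of 7.020, 7.700 and 8.580 (lowest, median, highest) at the end of exposure and 6.072, 7.103 and 8.219 after recovery. It fell by 0.62 ± 0.15 (1.54-fold lower; limma adjusted p = 0.00157), and 9 of 19 recovery arrays lay below every earlier array. Defb22, the rat counterpart of a heavily glycosylated peptide that forms much of the sperm surface coat, had 5.494, 5.859 and 6.318 before and 5.112, 5.417 and 5.810 after. Its fall was 0.37 ± 0.07 in size (1.29-fold lower; limma adjusted p = 1.62e-04), and all 19 recovery arrays lay below the earlier mean, 12 of them below the lowest earlier array. Over all arrays, both genes had means under the olfactory receptor line. Smaller falls were those of Defb4 (-0.17 ± 0.06), Defb33 (-0.17 ± 0.06) and Defb27 (-0.11 ± 0.04), and these 3 no longer passed after quantile normalization or centring of the arrays (limma adjusted p from 0.0633 to 0.121). Rats lacking Defb23, Defb26 and Defb42 together have been found subfertile. Defb23, one of the brightest genes, spanned 8.548 to 10.829 before and 8.362 to 11.183 after, with a difference that did not pass (-0.28 ± 0.20). Defb15 (-0.05 ± 0.06) and Defb2 (0.19 ± 0.08) did not pass either, though Defb2 did after quantile normalization (0.22, limma adjusted p = 0.0322) or centring (0.22, limma adjusted p = 0.0425).

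**Figure D2:**
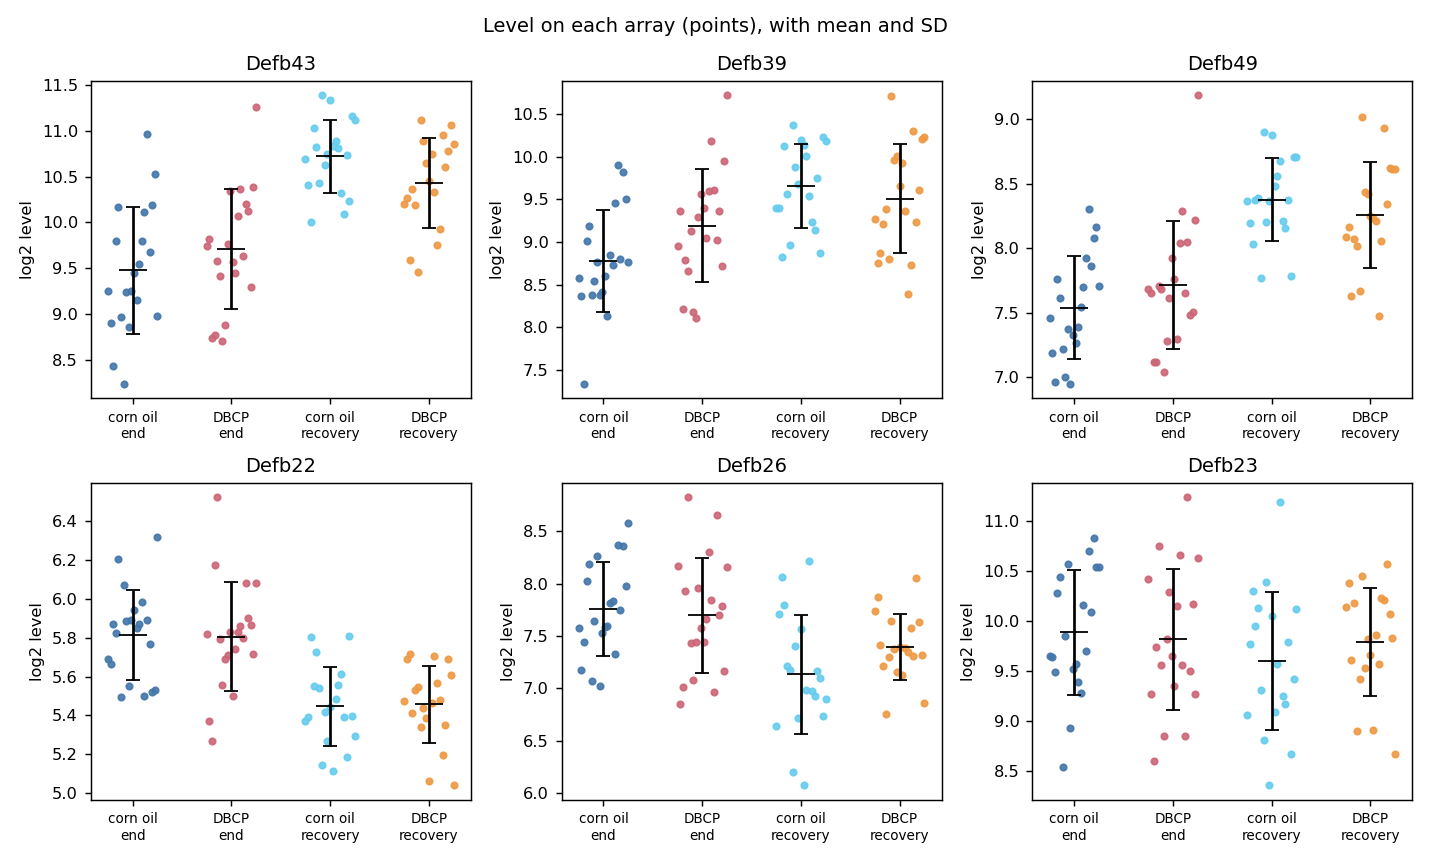
Log2 level on every array (points) for 6 beta-defensins in the 4 groups, with the group mean and SD in black; 19 or 20 arrays a group, and each panel has its own vertical axis. Defb43, Defb39 and Defb49 lie higher after recovery in corn oil rats, Defb22 and Defb26 lower, and the groups of Defb23 cover the same range.

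The replicate numbers of the labels run from 1 to 20, and the series lists 1 to 10 apart from 11 to 20; whether these are batches is not stated. Within numbers 1 to 10 alone, 15 of the 19 changes in corn oil rats passed in the same direction, and Defb43 rose by 1.64. Within numbers 11 to 20 alone, 3 of the 19 passed: Defb43 (0.85, limma adjusted p = 0.049), Defb26 (-0.91) and Defb22 (-0.39). All 19 had the same direction in both sets. Defb49 was at 1.06 in the first set and 0.62 in the second, where its limma adjusted p was 0.07. Defb39 was at 1.15 and 0.62, Defb11 at 0.93 and 0.41, and Defb30 at 0.69 and 0.11. Fewer of all 29214 probe sets passed as well, 4768 in the first set and 385 in the second. Defb26 was the larger in the second set, with -0.35 in the first (limma adjusted p = 0.268).

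In DBCP rats, the same comparison over time gave 7 beta-defensins that rose, 1 that fell and 29 that did not pass. Of all probe sets, 7.28% rose and 6.19% fell. The median was 0.0777 over the family and 0.0073 over all probe sets. Of the 10 genes above the olfactory receptor line 3 rose and 0 fell, and of the 27 others 4 rose and 1 fell. This split too rests on means that include the recovery arrays. At the end of exposure the DBCP means of Defb49 (7.715) and Defb9 (7.698) were under the line. Defb43 was again the largest, with 8.707, 9.688 and 11.266 (lowest, median, highest) at the end of DBCP exposure and 9.457, 10.453 and 11.126 after recovery. It rose by 0.73 ± 0.18 (1.66-fold; limma adjusted p = 0.00255), with 17 of 19 recovery arrays above the earlier mean and 0 above the highest earlier array. Defb49 rose by 0.54 ± 0.13, Defb11 by 0.46 ± 0.11, Defb9 by 0.39 ± 0.11, Defb10 by 0.26 ± 0.08, Defb2 by 0.25 ± 0.08 and Defb51 by 0.21 ± 0.07. Of these 7, 5 lie on chromosome 16. Defb22 fell by 0.35 ± 0.07 (1.27-fold lower; limma adjusted p = 3.70e-04), and all 19 recovery arrays lay below the earlier mean. Defb39 (0.31 ± 0.19) and Defb26 (-0.30 ± 0.15) did not pass.

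Within replicate numbers 1 to 10 of the DBCP rats, 6 of these 8 changes passed, and in 11 to 20 alone 1 did, Defb22 (-0.38). The 8 genes kept their direction in both sets. Defb43 was at 0.94 in the first and 0.52 in the second (limma adjusted p = 0.288), and Defb9 at 0.62 and 0.17. Limma's array weights set 6 arrays under 0.5, 3 of DBCP, 2 of DBCP after recovery and 1 of corn oil after recovery. Without those 6, 18 of the 19 calls in corn oil rats and 7 of the 8 in DBCP rats passed; Defb4 (limma adjusted p = 0.0654) and Defb10 (0.0948) did not.

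Both comparisons over time have arrays of their own, and 5 genes rose in each (Defb43, Defb49, Defb11, Defb9 and Defb51), 35.7% of those in corn oil rats and 71.4% of those in DBCP rats. Over all probe sets, 1199 rose in each, 35.6% and 56.4% of those that rose. Defb22 fell in each, as did 851 of all probe sets. All 14 genes that rose in corn oil rats had a smaller log2 difference in DBCP rats, and all 5 that fell had a smaller fall or none. These genes were chosen for passing in corn oil rats, which favours larger values there. Defb10 and Defb2, which passed in DBCP rats alone, rose more in DBCP rats (0.26 and 0.25) than in corn oil rats (0.10 and 0.19). The difference between both changes was itself tested, as the DBCP difference after recovery minus that at the end of exposure, and 0 of 37 genes passed (0% of all probe sets in each direction). At an unadjusted p under 0.05 there were 7 of the 37 and 3170 of all 29214 probe sets. Defb40 had the smallest p (-0.27 ± 0.10, 95% interval -0.47 to -0.06, limma adjusted p = 0.454). Defb39 (-0.57 ± 0.27, -1.10 to -0.04), Defb43 (-0.52 ± 0.25, -1.02 to -0.02), Defb28 (-0.43 ± 0.20) and Defb37 (-0.27 ± 0.11) were also below 0, and Defb27 (0.14 ± 0.06) and Defb13 (0.18 ± 0.09; named after its value was seen) were above 0. So the counts of 14 and 7 do not show that time acted differently in the treated rats.

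**Figure D3:**
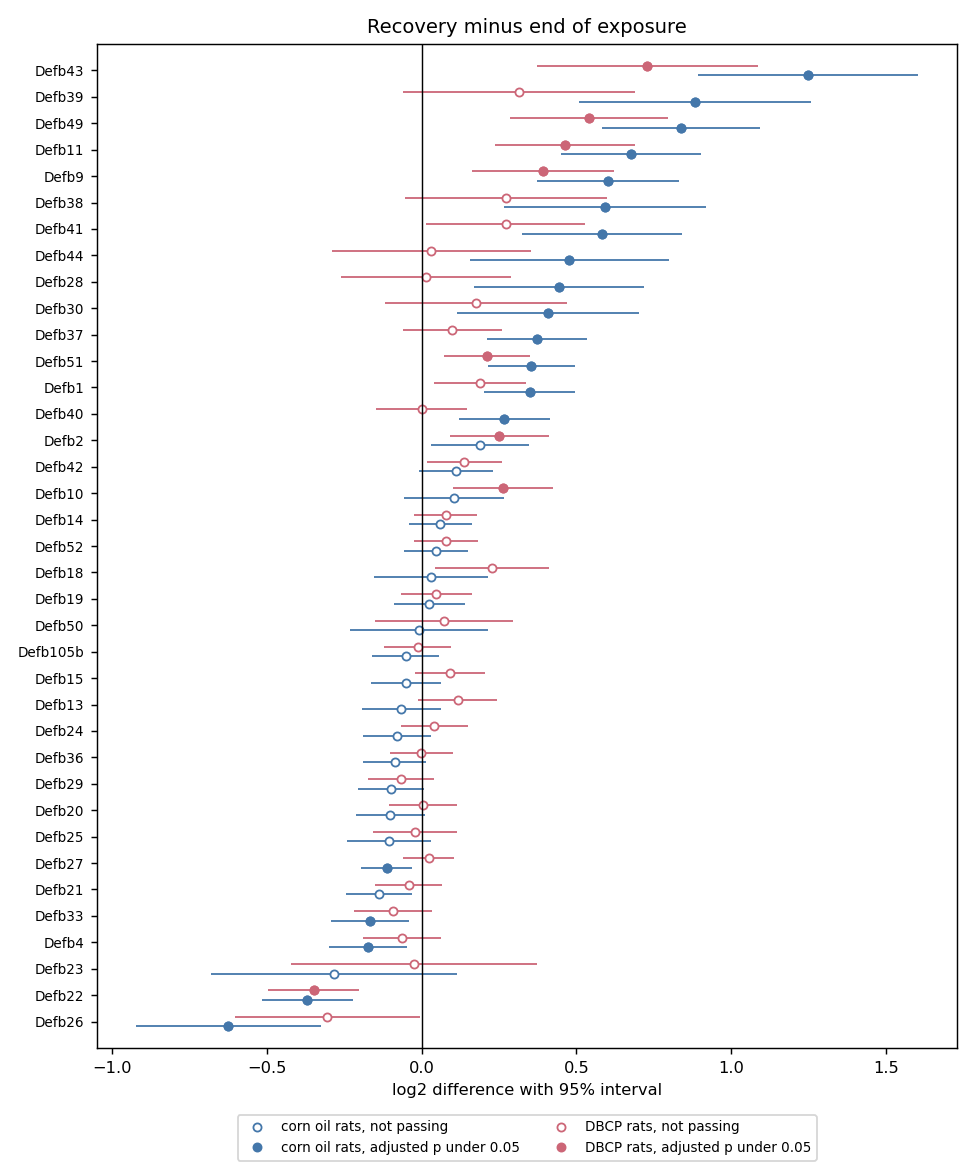
Log2 difference, recovery minus end of exposure, with its 95% interval for the 37 beta-defensins in corn oil rats (blue) and DBCP rats (red), ordered by the value in corn oil rats. Filled points passed at a limma adjusted p under 0.05 (19 in corn oil rats, 8 in DBCP rats). Defb43 stands at the top in both and Defb22 and Defb26 at the bottom.

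DBCP was compared with corn oil to ask whether the toxicant changes transcripts of sperm preparations. At the end of exposure, 0 of 37 beta-defensins passed, as did 0% of all probe sets in each direction. At an unadjusted p under 0.05 there were 2 of 37, both higher with DBCP, and 3386 of all probe sets. The median difference was 0.0032, against -0.0233 over all probe sets. Of the 10 genes above the olfactory receptor line 8 were above 0, with a median of 0.1774. Among the 27 others 11 were above 0, with a median of -0.0117, and of all probe sets 38% were. Many of these genes varied together within the groups, so their signs are not separate observations. Defb37 had the smallest p, at 0.22 ± 0.08 (95% interval 0.06 to 0.37, limma adjusted p = 0.239), with 17 of 20 DBCP arrays above the corn oil mean. Defb39 had the largest difference, at 0.42 ± 0.19 (0.05 to 0.79, limma adjusted p = 0.368, 15 of 20 arrays); its DBCP arrays spanned 8.113 to 10.718 and its corn oil arrays 7.338 to 9.902. Defb44 was at 0.29 ± 0.16, Defb27 at -0.07 ± 0.04 and Defb15 at -0.10 ± 0.06.

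The intervals of the other bright genes held 0. Defb43 was at 0.23 (-0.12 to 0.58), Defb23 at -0.07 (-0.46 to 0.32), Defb30 at 0.22 (-0.07 to 0.51) and Defb38 at 0.13 (-0.19 to 0.45). So did those of the genes named for their function: Defb1 was at 0.05 (-0.09 to 0.20), Defb2 at 0.07 (-0.08 to 0.23), Defb4 at -0.03 (-0.16 to 0.09), Defb22 at -0.01 (-0.15 to 0.13), Defb26 at -0.06 (-0.35 to 0.23) and Defb42 at -0.05 (-0.16 to 0.07). The intervals of all 37 lay between -0.46 and 0.79.

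After recovery, DBCP against corn oil again gave 0 of 37 beta-defensins (0% of all probe sets in each direction), and the smallest limma adjusted p was 0.983. At an unadjusted p under 0.05 there was 1 of 37, Defb40, lower after DBCP (-0.18 ± 0.07, 95% interval -0.33 to -0.03), with 14 of 19 arrays below the corn oil mean, and 1084 of all probe sets. The median was 0.01, against 0.0123 over all probe sets. Of the 10 genes above the olfactory receptor line 2 were above 0, with a median of -0.1362. Among the 27 others 17 were above 0, with a median of 0.0435, and of all probe sets 57.9% were. Defb41 was at -0.23 ± 0.13, Defb26 at 0.26 ± 0.15, Defb10 at 0.16 ± 0.08 and Defb2 at 0.14 ± 0.08. Defb43 was at -0.29 (-0.65 to 0.07), with arrays from 9.457 to 11.126 after DBCP and from 10.003 to 11.39 after corn oil, and Defb23 at 0.19 (-0.21 to 0.59). Defb22, the coat gene, was at 0.01 (-0.14 to 0.16). The intervals of all 37 lay between -0.65 and 0.59.

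**Figure D4:**
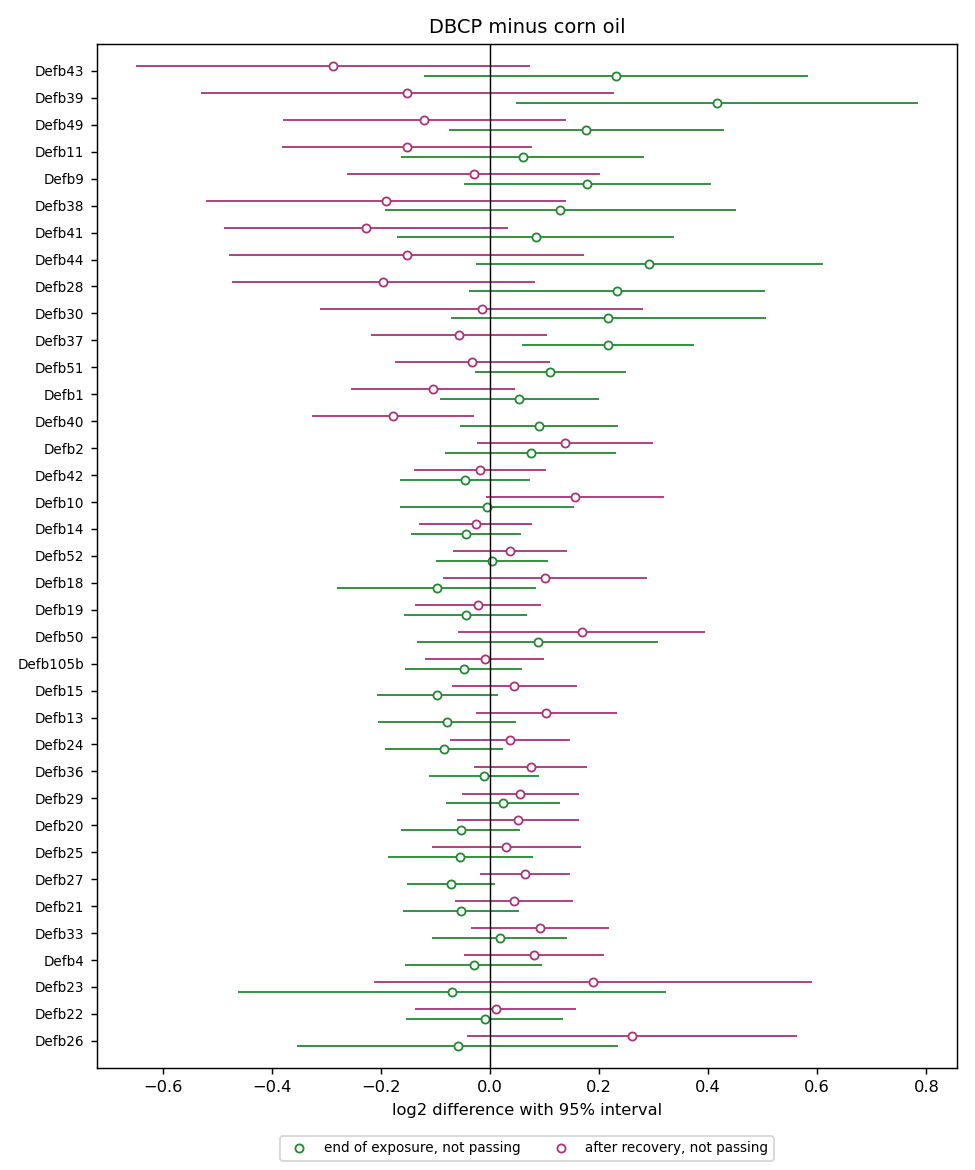
Log2 difference, DBCP minus corn oil, with its 95% interval for the 37 beta-defensins at the end of exposure (green) and after recovery (purple), in the order of the plot of changes over time. All points are open because none passed, and the intervals reach from -0.65 to 0.79.

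Within the groups, many of the genes varied together. The group means were taken out, and the levels of Defb43 and of Defb23 were correlated with those of the 36 others over the 78 arrays (72 pairs, two-sided permutation within groups, 100000 resamples, whose smallest possible p is 1e-05). Defb43 was chosen for having the largest change over time in corn oil rats and a high mean, and Defb23 for its high mean. Both were chosen after the values were seen. With Defb43, 27 of 36 genes had an adjusted p under 0.05, 16 positive and 11 negative, each with an r of at least 0.265 in size. Of the 29177 probe sets outside the family, 18.9% had an r this high and 36.9% one this low, so such correlations were common on these arrays. The 13 other genes that rose in corn oil rats were all positive, with r from 0.57 to 0.903 and a median of 0.768. They were not compared with the probe sets outside the family that also rose, so this is not shown to be a trait of the family. Of the 23 others, 3 were positive and 11 negative, with r from -0.576 to 0.438. Defb49 came first (r = 0.903, Spearman rho = 0.912, permutation p = 1e-05, adjusted 3.4e-05), then Defb39 (r = 0.878, rho = 0.89), Defb9 (0.827, 0.817) and Defb38 (0.826, 0.830). Without the 2 arrays farthest from the median of Defb43, DBCP number 20 and corn oil number 16, r with Defb49 was 0.889. The lowest were Defb4 (r = -0.576, rho = -0.606, permutation p = 1e-05) and Defb21 (r = -0.548, rho = -0.544). Defb25, which lay above the olfactory receptor line, was negative too (r = -0.509, rho = -0.54). Genes under the line were also among the positive ones, such as Defb44 (r = 0.807). Dim probe sets can share the scale of an array, so the sign of r for genes under the line says little of the genes.

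Defb23 varied with another gene of its cluster. Its r with Defb26 was 0.843 (rho = 0.839, permutation p = 1e-05, adjusted 3.4e-05), and 0.819 without the 2 farthest arrays. The next were Defb44 (r = 0.539) and Defb30 (r = 0.538), both of chromosome 15, then Defb1 (0.519) and Defb38 (0.488) of chromosome 16. In its own cluster Defb28 was at 0.418, Defb22 at 0.403, Defb21 at -0.31 and Defb20 at -0.257, and the rest did not pass. In all, 17 of 36 genes passed, 12 positive and 5 negative, with an r of at least 0.257 in size. Of the 29177 probe sets outside the family, 8.11% had an r this high and 16.9% one this low. With Defb43, Defb23 had r = 0.337 and Defb26 0.197 (adjusted p = 0.13). Over all arrays with the group means taken out, the genes outside the family whose levels were most like those of Defb43 were Chrdl2 (r = 0.924), Cd52, a glycosylated surface antigen that the epididymal epithelium passes to sperm (0.923), Serpina16 (0.905), Tfg (0.896) and Tecr (0.888). These correlations are over 78 arrays that share their preparation and scale.

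Marker genes of other cells also moved with time. The labelled tissue was set against its markers: 18 of 24 genes of late spermatids and sperm lay above the olfactory receptor line, and so did 17 of 27 leukocyte genes, 7 of 30 of epididymal principal cells (beta-defensins left out), 2 of 12 of basal and clear cells, 4 of 12 of stroma and endothelium and 3 of 5 of erythrocytes. The mean level of the leukocyte list was 8.021 on corn oil arrays (7.725 to 8.451) and 8.378 after recovery (8.012 to 8.836), with 16 of 27 genes higher and 2 lower; in DBCP rats it was 7.894 (7.540 to 8.236) and 8.222 (7.925 to 8.558), with 18 higher. The late spermatid list went from 9.551 (8.746 to 10.003) to 9.260 (8.794 to 9.555) in corn oil rats, with 13 of 24 lower, and from 9.830 (9.130 to 10.792) to 9.251 (8.921 to 9.814) in DBCP rats, with 18 lower. Of all probe sets, 11.5% rose and 12.8% fell in corn oil rats, and 7.28% rose and 6.19% fell in DBCP rats. The part of these cells in the changes of the beta-defensins was not tested.

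The list of principal cells, which secrete most beta-defensins, was at 7.357 (7.175 to 7.844) and 7.395 (7.193 to 8.145) in corn oil rats and at 7.363 (7.049 to 7.649) and 7.343 (7.254 to 7.458) in DBCP rats. Of its 30 genes 7 lay above the olfactory receptor line, so the list level rests largely on signals that silent genes also reach. In corn oil rats 4 of its 30 genes rose and 4 fell. Those that rose were Cd52 (0.72), Ptgds, a prostaglandin synthase and lipid carrier (0.71), Rnase12 (0.53) and the water channel Aqp9 (0.32). Those that fell were Cst8, a cystatin (-0.44), Crisp1, a sperm-binding protein (-0.43), Cuzd1 (-0.22) and Spag11a (-0.18). In DBCP rats Ptgds rose (0.48), and Cst8 (-0.91) and Cuzd1 (-0.22) fell. These counts of 30 stand beside 11.5% higher and 12.8% lower over all probe sets in corn oil rats and 7.28% and 6.19% in DBCP rats, so they lie near the background.

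Basal and clear cells, the other epithelial cells of the duct, had a list level of 7.085 (6.935 to 7.295) and 7.241 (6.945 to 7.457) in corn oil rats, and of 7.194 (6.946 to 7.460) and 7.253 (7.042 to 7.452) in DBCP rats. In corn oil rats 4 of 12 genes rose, beside 11.5% of all probe sets. Among them were Foxi1, the transcription factor of clear cells (0.65), and Atp6v0d2 (0.87) and Atp6v1b1 (0.41), subunits of their proton pump. Krt14, a basal keratin, fell (-0.18), beside 12.8% of all probe sets. In DBCP rats 0 rose, beside 7.28% of all probe sets, and Car2 fell (-0.33), beside 6.19%. The level of this list had r = 0.65 with Defb43 over the 78 arrays with the group means taken out, against 0.33 for leukocytes, 0.275 for principal cells, 0.186 for late spermatids, -0.083 for erythrocytes and -0.333 for stroma and endothelium. Both epithelial lists hold mostly genes under the olfactory receptor line (2 of 12 and 7 of 30 lay above it). A single gene can differ from its list, as Cd52 of the principal cell list had r = 0.923. These r values therefore do not show which cells the RNA of Defb43 came from. Stroma and endothelium had 1 gene higher and 2 lower in corn oil rats and 2 higher in DBCP rats, and erythrocytes had 0 of 5 in each (limma, also at an unadjusted p under 0.05). With DBCP, 0 of the 110 genes of these lists passed limma's test at either time (30 and 12 at an unadjusted p under 0.05), while the late spermatid list stood at a median of 0.28 at the end of exposure (16 of 24 at an unadjusted p under 0.05) and the leukocyte list at -0.14 (7 of 27). After recovery the leukocyte list was at -0.18 (8 of 27). The erythrocyte list was at -0.26 when exposure ended and at -0.47 after recovery, with 3 of 5 genes at an unadjusted p under 0.05 each time.

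**Figure D5:**
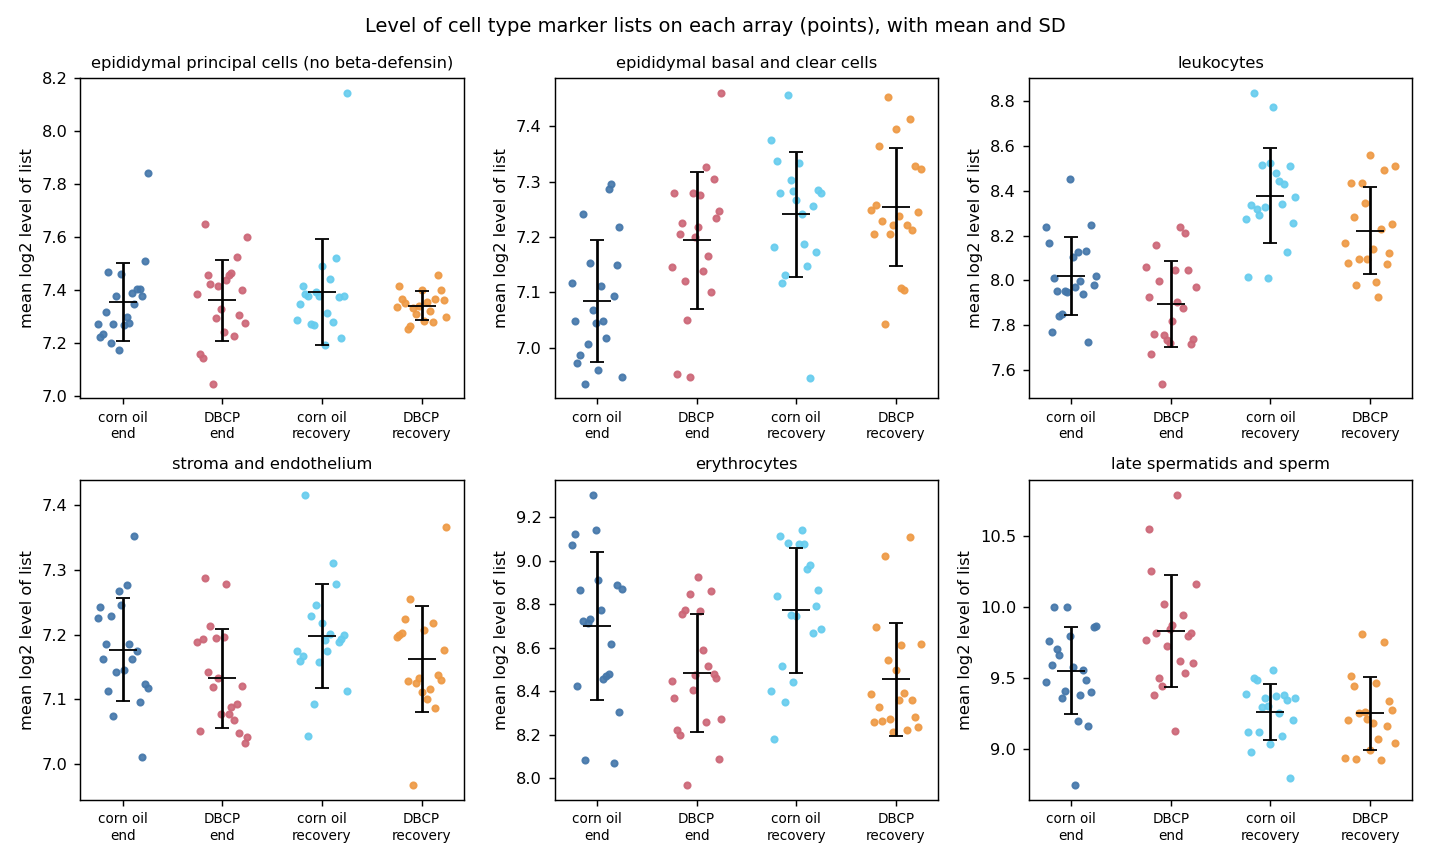
Mean log2 level of 6 lists of cell type markers on every array (points) in the 4 groups, with the group mean and SD in black. The leukocyte list lies higher and the late spermatid list lower after recovery, and the means of the principal cell list lie between 7.343 and 7.395. Of the 30 genes of the principal cell list, 7 lie above the olfactory receptor line.

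Other genes of the defence pathway were counted beside the family. Over 4 lists with 56 genes in all, 16.1% rose and 8.9% fell in corn oil rats (11.5% and 12.8% of all probe sets), and 14.3% rose and 3.6% fell in DBCP rats (7.28% and 6.19%). Of 10 other defensins and Spag11 genes, relatives of the beta-defensins made in the same duct, 0 rose and 1 fell in corn oil rats (Spag11a, -0.18), and 0 passed limma's test in DBCP rats (0 at an unadjusted p under 0.05). Of 17 other antimicrobial proteins, Lyc2, a lysozyme (0.64), and Ltf, the iron-binding lactotransferrin (0.63), rose in corn oil rats, and Lcn2, which binds bacterial siderophores (-0.28), and the iron hormone Hamp (-0.20) fell. In DBCP rats Lyc2 (0.44), Ltf (0.50) and the lysozyme Lyz2 (0.43) rose, and Lcn2 (-0.46) and Bpi, which binds bacterial endotoxin (-0.62), fell.

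Among the 16 receptors and sensing genes, Ccr2, a chemokine receptor of monocytes (0.54), Tlr3 (0.37), Tlr7 (0.30) and the adaptor Myd88 (0.14) rose in corn oil rats, and Mc4r, a melanocortin receptor, fell (-0.21). In DBCP rats Ccr2 (0.64), Tlr3 (0.35) and Tlr7 (0.36) rose. Among the 13 regulators, Nfkb1 (0.29) and Rela (0.20), subunits of NF-kappaB, and the glucocorticoid receptor Nr3c1 (0.28) rose in corn oil rats, and the estrogen receptor Esr1 fell (-0.12). Nfkb1 (0.21) and Nr3c1 (0.29) rose in DBCP rats. With DBCP against corn oil, 0 of the 56 genes of these 4 lists passed limma's test at either time (5 and 4 at an unadjusted p under 0.05). The gene Lyz2 is also in the leukocyte list.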

How the data were processed

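Sperm RNA of 78 rat samples was measured on 1 array each. The deposited log2 values are summaries per probe set made by the authors, who name limma, without a version, in the submitters' processing notes; no source used here states the background correction, normalization or summarisation. All 29214 probe sets had a value on every array (0 missing), and the values were used as deposited. The number of arrays limits the precision.

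Limma 3.58.1 (R 4.3.3) estimated the 4 group means from the 78 arrays together and tested 5 contrasts. Adjusted p-values are Benjamini-Hochberg values for the whole array (threshold 0.05). The fit was tested on simulated data. Genes were named from the platform annotation by Entrez identifier. Of the family, 1 gene (Defb15) had 2 probe sets, which gave like values. There were 2 more probe sets with several symbols, which were left out, so Defb3, Defb5 and Defb17 are not analysed here.

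Named were the genes that passed in a contrast, up to the 15 largest, or the 5 of smallest p where fewer than 5 passed, the 5 of highest mean, and Defb1, Defb2, Defb4, Defb15, Defb22, Defb23, Defb26, Defb42 and Defb43 by function. The other members that passed are also given. The members, the lists, the motifs and the promoters shown were chosen with earlier results of these data known. Protein sequences were not used here, so the cysteine pattern was not analysed. Samples of 1 group are biological replicates per the labels, with animals and pools not stated, so p-values measure the spread between these samples.

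Other settings tried were centring each array on its median, quantile normalization, a filter that keeps probe sets above the median mean, array weights, leaving out the 6 arrays of weight under 0.5, fits on a contrast's own groups, a block for the replicate number, replicate numbers 1 to 10 and 11 to 20 as a term or apart, 1 probe set per gene, a trended robust prior and an adjusted p of 0.10. The numbers did not pair the samples. Python was used for the figures.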

Additional observations from a re-analysis of the deposited data

How the results depend on the processing

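Over the alternatives, 996 values of named beta-defensins kept their direction and their side of the threshold, 41 kept their direction but no longer passed, 9 came to pass and 33 changed sign. None of the beta-defensins that passed over time changed sign, and in the 3 comparisons with DBCP 0 passed under every alternative run. The 9 that came to pass were of Defb2 in corn oil rats (6 settings, 0.189 to 0.423) and Defb1 in DBCP rats (3 settings, 0.19 to 0.34).

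The sign changes were all of genes that did not pass. For DBCP at the end of exposure, Defb22 was at 0.03 under quantile normalization, 0.006 after centring and 0.022 within replicate numbers 11 to 20. Defb4 was at 0.007 with array weights, 0.017 without the arrays of low weight and 0.003 within 11 to 20. Within 1 to 10, Defb23 was at 0.002, Defb1 at -0.014, Defb2 at -0.006, Defb26 at 0.033 and Defb42 at 0.021. For DBCP after recovery, quantile normalization gave 0.006 for Defb30 and -0.024 for Defb22, centring -0.003 for Defb22, and leaving out the arrays of low weight 0.006 for Defb42. Within 1 to 10, Defb2 was at -0.011, Defb15 at -0.107 and Defb22 at -0.006, and within 11 to 20, Defb30 was at 0.104 and Defb42 at 0.017. For the difference of both, Defb22 was at -0.054 (quantile) and -0.01 (centred), Defb42 at -0.003 (centred) and -0.073 (1 to 10), Defb2 at -0.005 and Defb15 at -0.043 (both 1 to 10). Over time in corn oil rats, Defb15 was at 0.055 within 1 to 10 and Defb2 at -0.058 within 11 to 20. In DBCP rats, Defb23 was at 0.039 (quantile) and 0.115 (1 to 10), and within 11 to 20 Defb39 was at -0.005, Defb30 at -0.062 and Defb38 at -0.006.

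In corn oil rats, the number that fell was 3 under quantile normalization, 2 after centring, 2 with probe sets above the median mean alone, 1 within replicate numbers 1 to 10 and 2 within 11 to 20. With probe sets above the median mean alone, which keep 24 of the 37 genes, the median was 0.308 in corn oil rats and -0.151 for the difference of the DBCP differences, and 0 fell in DBCP rats. The number that rose was 1 in corn oil rats and 0 in DBCP rats within numbers 11 to 20, and 0 fell in DBCP rats within 1 to 10. The cause was not tested, beyond there being fewer genes or arrays in the filter and in the sets. In the check of pairing, same-numbered samples of different groups had correlations of their deviations between -0.488 and 0.568. With the replicate number as a block (consensus correlation -0.0145), 14 beta-defensins rose and 5 fell in corn oil rats and 7 and 1 in DBCP rats, all 19 and all 8 being those called without it. The values carry no detection call, so changes of genes under the olfactory receptor line rest on signals that silent genes also reach.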
